A study of Mus musculus with 30 samples.

Results

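The mouse mitochondrial genome carries 13 protein genes, and the 6 described here are those that lie outside complex I: mt-Cytb, mt-Co1, mt-Co2, mt-Co3, mt-Atp6 and mt-Atp8. They were picked by gene name, as 6 of the 37 mitochondrial rows (the "mt-" rows) among the 56484 genes of the count table. The other 31 rows are 7 complex I subunits, 2 rRNAs and 22 tRNAs. All 6 had counts in every library and passed the filter on low counts. Counts came from 30 libraries of the developing mouse eye at embryonic day (E) 12, made by Geo-seq, in which small regions are cut from cryosections with a laser and their RNA is amplified. All libraries are labelled Control, and the study's controls were littermates without Dct-Cre, a transgene that expresses Cre recombinase in the pigmented and optic stalk lineages. The regions came from 4 embryos, and the labels do not tie a library to an embryo. Of the 30 libraries, 14 were from the presumptive retinal pigment epithelium (pRPE), with 3 dorsal distal and 4 dorsal proximal libraries, and 4 distal and 3 proximal ones on the ventral side. The other 16 were from the optic stalk (OS), with 3 distal, 2 middle and 2 proximal libraries on the dorsal side, and 3 distal, 4 middle and 2 proximal ones on the ventral side. The labels also give a batch, A for 14 libraries (6 dorsal, 8 ventral) and B for 16 (8 dorsal, 8 ventral), which the study's description of its sample table calls a processing batch.

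Mitochondrial protein genes are transcribed from both strands of a small circular genome as long precursors, and most mRNAs are freed when the tRNAs between them are cut out. Their products are core subunits of the respiratory chain. Cytochrome b passes electrons within complex III, cytochrome c oxidase subunits 1 to 3 form the core of complex IV, and ATP synthase subunits 6 and 8 belong to the membrane part of complex V. Neighbouring genes share bases where no tRNA separates them, and the 3 stretches below are shown because the first pair of genes cannot be fully separated by a read there, the second pair abuts, and the last opens the gene with the largest differences. All 3 lie on the plus strand of chromosome M of GRCm38 and are written 5′ to 3′.

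mt-Atp8 and mt-Atp6 overlap, chrM:7927-7969, with the first codon of mt-Atp6 and the last of mt-Atp8 in capitals: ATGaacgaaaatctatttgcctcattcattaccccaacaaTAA
mt-Atp6 and mt-Co3 junction, chrM:8595-8621, with the base that ends the annotated mt-Atp6 and opens mt-Co3 in a capital: tgataatacataAtgacccaccaaact
mt-Cytb, first 30 bases, chrM:14145-14174, with its first codon in capitals: ATGacaaacatacgaaaaacacacccatta

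mt-Co1 occupies positions 5328 to 6872 of chromosome M, mt-Co2 7013 to 7696, mt-Atp8 7766 to 7969, mt-Atp6 7927 to 8607, mt-Co3 8607 to 9390 and mt-Cytb 14145 to 15288. None has an intron, and each lies on the plus strand. The nuclear genome holds a near-identical copy of part of this sequence at chr1:24611535-24616188 (minus strand), which matches mitochondrial positions 6390 to 11042 at 99.9% identity. Every 150-base stretch, the read length used, of mt-Co2 (535), mt-Co3 (635), mt-Atp6 (532) and mt-Atp8 (55) occurs unchanged in a nuclear copy. The same holds for 330 of 1396 stretches of mt-Co1 (23.6%) and for 0 of 995 of mt-Cytb. Reads of mt-Co2, mt-Co3, mt-Atp6, mt-Atp8 and part of mt-Co1 can therefore not be told from reads of the copy by sequence, and their counts are uncertain to that extent. Of the 7 pseudogene rows in the copy, 6 had no count in any library and Gm29216 had 13 counts in 1 library.

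Libraries held between 1421918 and 6041021 counts, in 1730 to 9886 detected genes, and 30.4% to 55.4% of counts lay on mt- rows. With counts this high, counting error was small beside the spread between libraries. The lowest count of any member, 6844 for mt-Atp8 in OS dorsal distal replicate 3, was 0.348% of all counts with a 95% Wilson interval of 0.340% to 0.357%, which covers counting error only. Of the marker genes of the optic stalk, Pax2, Zic4 and Cdh6 were lower in pRPE, which were all 3 tested of 5 listed. Of 10 listed pigment cell genes, 7 were tested and 2, Pmel (counted in 3 libraries) and Gpnmb (in 24), were higher in pRPE (edgeR's quasi-likelihood test, Benjamini-Hochberg adjusted p = 0.0280 to 0.0352 for these 5). Otx2 and Trpm1 had higher means in OS and were not called, and Dct, Tyr and Tyrp1 had no count. Rax, a retinal transcription factor counted in 6 libraries, was also higher in pRPE (adjusted p = 0.0280), where the summed retina markers reached 84.3 counts per 1e6 counts, against 0 in OS. None of these genes was called between dorsal and ventral libraries. Mitf, a pigment cell transcription factor also found in the dorsal stalk, averaged 65.04 counts per 1e6 counts in dorsal and 18.3 in ventral libraries (adjusted p = 0.273), Otx2 6.42 and 0 (0.0584), and Pax2, a ventral stalk marker, 23.0 and 79.5 (0.431). The summed markers of mesenchyme ranged from 0 to 1034 counts per 1e6 counts in pRPE and 0 to 916 in OS, those of blood from 0 to 60.9 and 0 to 56.8, and those of endothelium from 0 to 0.967 and 0 to 11.6.

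Taken as a set, the 6 transcripts made up 14.6% to 33.4% of all counts in a library, and 42.8% to 64.2% of the counts on mt- rows. mt-Cytb was the most abundant by counts. Its share of all counts was 4.22% in the lowest library, 9.57% in the median and 17.2% in the highest (mean 9.39% ± 3.03, SD, n = 30), a 4.08-fold range. mt-Atp6 ran from 2.94% through a median of 4.48% to 7.97% (4.48% ± 1.17). mt-Co1 ran from 2.80% through 4.19% to 5.91% (4.34% ± 0.847), the narrowest range of the 6 at 2.11-fold. The remaining 3 were lower, with mt-Co3 at 1.95% ± 0.516 (1.36% to 3.11%), mt-Co2 at 1.59% ± 0.371 (1.02% to 2.97%) and mt-Atp8 at 0.556% ± 0.163 (0.334% to 0.947%).

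Counts follow gene length, so levels of different genes were compared as percent of mt counts per kilobase of gene. On that scale mt-Cytb held the highest level of the 13 protein genes and 2 rRNAs, 18.7 ± 4.89 (SD, n = 30), and mt-Atp6 the next, 14.98 ± 2.46. mt-Cytb was above mt-Atp6 in 26 of 30 libraries, and both were above the other 4 members in 30 of 30. The cytochrome c oxidase genes and mt-Atp8 lay close together, mt-Co1 at 6.58 ± 1.503, mt-Atp8 at 6.20 ± 1.25, mt-Co3 at 5.79 ± 1.53 and mt-Co2 at 5.33 ± 0.851. Their order was not kept between libraries, since mt-Co1 exceeded mt-Atp8 in 18 of 30, mt-Atp8 exceeded mt-Co3 in 17 and mt-Co3 exceeded mt-Co2 in 11. The 3 subunits of complex IV thus stood at similar per-length levels, and of the overlapping complex V pair mt-Atp6 was the higher in 30 of 30 libraries. The place of mt-Atp8 rests on the measure of length, because a gene this short holds few whole 150-base reads. Per start position of a whole read (55 in mt-Atp8, 532 in mt-Atp6), mt-Atp6 was the higher in 1 of 30 libraries, mt-Cytb exceeded mt-Atp8 in 11, mt-Co1 exceeded it in 0, and mt-Atp8 exceeded mt-Co3 in 30. Between the other 5 members the order by means was the same on both measures, with mt-Cytb above mt-Atp6 in 21 of 30.

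**Figure D1:**
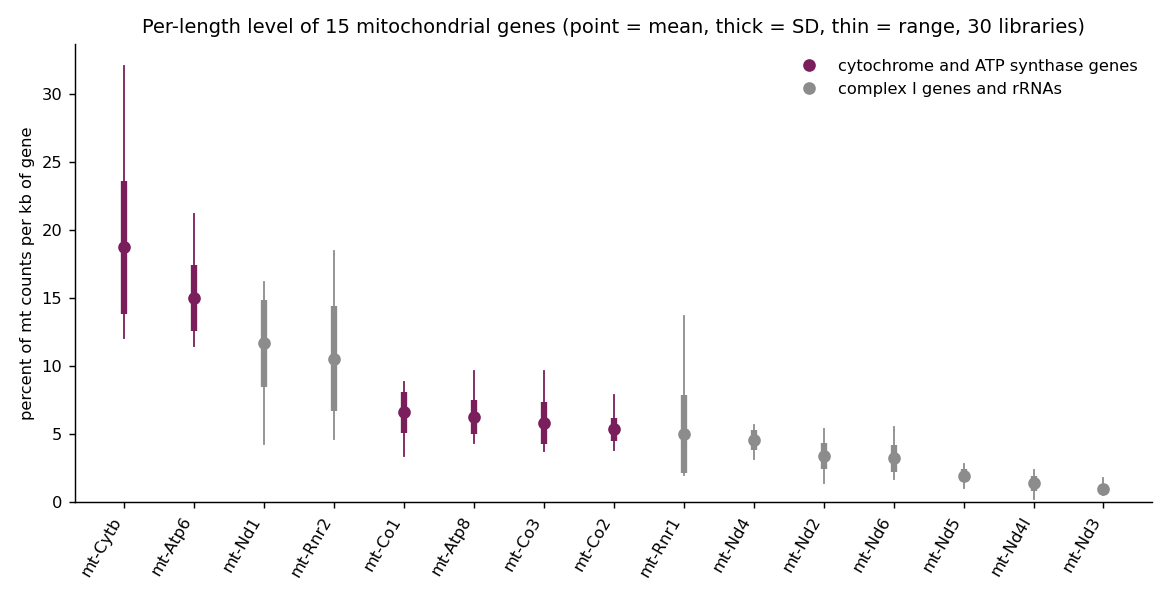
Level of the 13 mitochondrial protein genes and 2 rRNAs as percent of mt counts per kilobase of gene (vertical axis), with the mean as a point, the SD as a thick line and the range over 30 libraries as a thin line. mt-Cytb (18.7) and mt-Atp6 (14.98) stand above the other members, which lie between 5.33 and 6.58.

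The first comparison asked whether the transcripts differ between pRPE and OS. None of the 6 passed the test. mt-Cytb had 4.22%, 9.06% and 15.4% of all counts (lowest, median, highest) in pRPE and 5.34%, 10.1% and 17.2% in OS, with a log2 fold change of the share, pRPE over OS, of -0.28 ± 0.13 (SE, edgeR's quasi-likelihood test, adjusted p = 0.286). For the other 5 members the fold change lay between -0.18 (mt-Co3) and 0.10 (mt-Co2). The 2 tissues overlapped for each member. Of all 8337 genes tested, 5.51% were called (adjusted p below 0.05, with a change of more than 0.58 on the log2 scale), so 0 of 6 was no departure from the background. The median log2 fold change of the members was -0.10, against 0.35 over all genes tested. Among the 349 genes with a count in every library, where the edgeR test held its error rate better in simulated counts, 3.44% and again 0 of 6 members were called.

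Within the mt- rows, the member nearest to a tissue difference was mt-Co2. It held 3.93% ± 0.633 of mt counts in pRPE (3.03% to 5.36%, n = 14) and 3.40% ± 0.408 in OS (2.60% to 4.19%, n = 16), a batch-adjusted difference of 0.525 points (permutation test within batch, two-sided, p = 0.0113, adjusted over 37 rows 0.104). The difference was 0.502 points within batch A and 0.546 within batch B, and neither passed the test. No member was called, and neither was any other row (0%). By region, mt-Co2 was highest in pRPE dorsal distal (4.65% ± 0.646, n = 3) and dorsal proximal (4.09% ± 0.349, n = 4), while the means of the other 8 regions lay between 3.31% and 3.63%. The step from dorsal proximal to the next region, ventral distal pRPE, was larger than either region's SD, though their ranges overlapped.

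Across the 10 regions, mt-Cytb was highest in OS ventral distal, with 10.04%, 17.2% and 8.78% of all counts in the 3 libraries, and lowest in pRPE dorsal proximal, with 6.83%, 9.42%, 6.09% and 5.36% in the 4. The means differed 1.73-fold. The regions between them formed a gradual order in which no neighbours differed by more than their SD, and dorsal regions of both tissues held wide spreads, as in pRPE dorsal distal at 15.4%, 4.22% and 5.99%. mt-Co3 was highest in OS ventral proximal (2.62% and 2.44%) and lowest in OS dorsal distal (1.72%, 1.36% and 1.46%), a 1.67-fold difference of means. For mt-Co1, mt-Co2, mt-Atp6 and mt-Atp8 the highest and lowest region means differed 1.29-fold to 1.41-fold, again with no neighbours beyond their SD. By share of mt counts, mt-Co3 was highest in OS ventral middle (5.53%), distal (5.43%) and proximal (5.35%). The step from OS ventral proximal (n = 2) to pRPE dorsal distal (4.45%, n = 3) exceeded either SD, and these 2 regions did not overlap. OS ventral middle (from 3.78%) and distal (from 2.91%) reached lower. In a test over the 10 regions with batch in the model, no member was called. The lowest adjusted p was 0.310, for mt-Cytb (edgeR's quasi-likelihood test), and 0% of genes were called, while 1864 genes had p below 0.05 before adjustment and DESeq2 called 45.

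**Figure D2:**
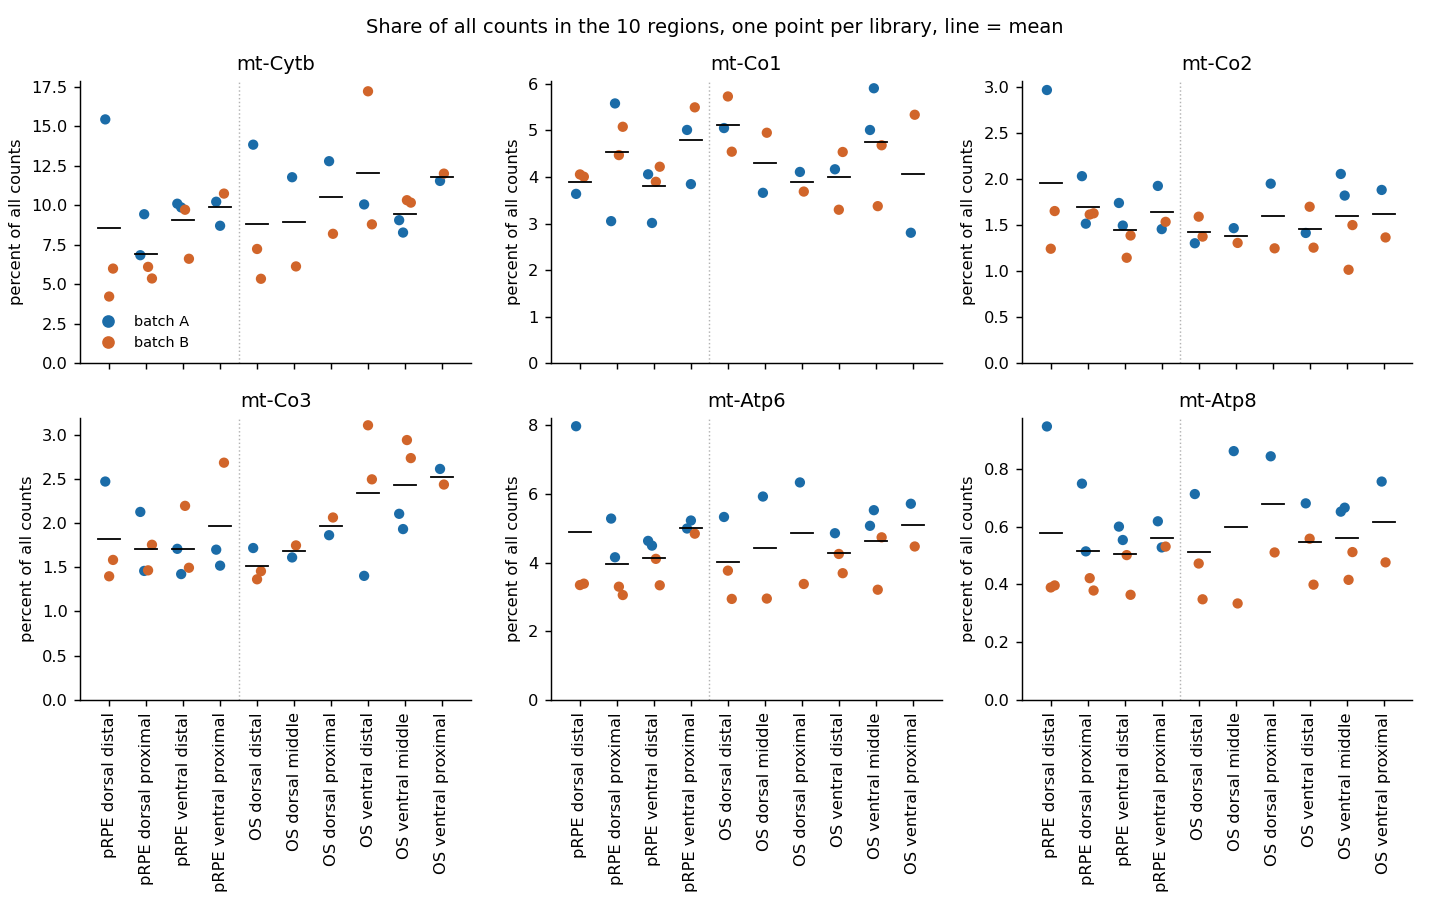
Share of all counts (percent, vertical axis) of the 6 transcripts in the 10 regions, 1 point per library coloured by batch, with a line at the region's mean and pRPE left of the dotted line. In each of the 5 dorsal regions of mt-Cytb the batch A points lie above the batch B points, widely in pRPE dorsal distal (15.4% against 4.22% and 5.99%) and narrowly in pRPE dorsal proximal (6.83% and 9.42% against 6.09% and 5.36%). The same holds for mt-Atp6, with dorsal libraries at 4.15% to 7.97% in A and 2.94% to 3.76% in B, and for mt-Atp8. How many other genes do so was not counted.

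The next comparison was dorsal against ventral. Over all 30 libraries no member was called, against 7.86% of genes. mt-Cytb held 4.22%, 7.03% and 15.4% of all counts in dorsal and 6.61%, 10.1% and 17.2% in ventral libraries, with a log2 fold change, dorsal over ventral, of -0.30 ± 0.13 (SE, adjusted p = 0.195). mt-Co3 held 1.36%, 1.67% and 2.47% against 1.404%, 2.15% and 3.11%, with -0.29 ± 0.12 (adjusted p = 0.145). The other 4 lay between -0.07 and 0.09, and all 6 overlapped between positions. Among the 349 genes counted in every library, 0.86% were called and no member was. The median over all genes was 0.63, and 0.81 with TMM scaling, but -0.16 in the genes counted in every library and -0.09 with detected genes as a covariate. With that scaling mt-Cytb and mt-Co3 came to -0.04 and -0.05. Among shares of mt counts, 0 of 6 members and 0% of rows were called. The dorsal-ventral difference did not differ detectably between pRPE and OS for any member (tissue by position interaction, adjusted p of at least 0.269, 3.12% of genes called). Those 260 genes fell to 0 with TMM, filterByExpr or the library-number block, and to 0 or 1 without any of 26 of the 30 libraries, whereas TMMwsp called 272, DESeq2 766 and no filter 298.

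The dorsal minus ventral difference of mt-Cytb had opposite signs in the 2 batches. In batch B, mt-Cytb was lower in dorsal than in ventral libraries. It held 13.8%, 15.2% and 19.6% of mt counts (lowest, median, highest) in the 8 dorsal libraries and 19.7%, 24.96% and 36.7% in the 8 ventral ones, so the groups did not overlap, although the highest dorsal library came close to the lowest ventral one. The means were 15.5% ± 1.88 and 25.9% ± 5.12, a difference of -10.4 points (exact permutation test, two-sided, p = 0.000155, which is the smallest it can give, adjusted over 37 rows 0.00287). mt-Co3 moved with it, at 2.90%, 4.40% and 4.93% in dorsal and 4.47%, 6.17% and 7.54% in ventral libraries, which overlapped, with a difference of -1.96 points (exact permutation test, adjusted p = 0.00958). The other 4 members were not called.

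These 2 were among 6 of 37 rows called in batch B (16.2%). The other 4 were all higher in dorsal libraries. They were mt-Rnr2, the large ribosomal RNA, at 23.7% ± 3.16 against 12.9% ± 2.19, the complex I subunits mt-Nd3 and mt-Nd4l, and the glycine tRNA mt-Tg. mt-Rnr2 was the only row besides mt-Cytb whose groups did not overlap (5.41% of rows). Shares within the mt- rows sum to a fixed total, so a higher rRNA share goes with lower shares of the rest. With the rRNA rows left out of the total, 4 members were called in batch B, among 9 of 35 rows, in both directions. mt-Cytb (-8.93 points) and mt-Co3 (-1.499) were lower in dorsal libraries, and mt-Co1 (3.71) and mt-Co2 (1.297) were higher there. The difference was also called when detected genes entered as a covariate (-8.06 points for mt-Cytb and -1.93 for mt-Co3, both with an adjusted p of 0.00862 by permutation). Detected genes moved with position in this batch, from 2693 to 9886 in dorsal and from 1730 to 4853 in ventral libraries. The permuted labels did not keep that relation, so these adjusted p-values may be too small. The part of detected genes in the result was not tested further.

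In shares of all counts the same members were called in batch B. mt-Cytb made up 4.22%, 6.04% and 8.19% in dorsal and 6.61%, 10.2% and 17.2% in ventral libraries, with a log2 fold change of -0.77 ± 0.13 (SE, edgeR's quasi-likelihood test, adjusted p = 0.00797). mt-Co3 had -0.61 ± 0.14 (adjusted p = 0.0493). The 2 positions overlapped for each, and for 0.144% of genes they did not. mt-Atp6 had -0.32 ± 0.10 (adjusted p = 0.0493) and stayed under the fold threshold. Among the 433 genes with a count in every library of batch B, 6% were called, again with mt-Cytb and mt-Co3 (adjusted p = 0.00674 and 0.0121, edgeR's quasi-likelihood test). Of those 26 genes, 18 were lower in dorsal libraries, the direction of the 2 members. In the comparison over all 6361 genes 12% were called, 0.314% as lower in dorsal libraries. That background rests on single libraries, since the 762 calls fell to between 4 and 7 in 14 of the 16 fits without 1 library, the exceptions being OS dorsal distal replicate 2 (679) and OS dorsal proximal replicate 2 (774). mt-Cytb was called without any 1 of the 16 libraries, from -0.84 to -0.67, while mt-Co3 lost its call in 14 of the 16 such fits. With TMM scaling mt-Cytb came to -0.50 (adjusted p = 0.0460) and mt-Co3 to -0.35, and neither was called. DESeq2 called neither, with -0.61 for mt-Cytb (adjusted p = 0.395) and -0.45 for mt-Co3 (adjusted p = 0.5498). With 4 embryos for 30 libraries, libraries of a position must share embryos, so these p-values and all others given here, which take libraries as independent, do not have embryos as replicates and may be too small.

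In batch A no member was called between positions, and 0% of 5143 genes and 0% of mt- rows were. The positions overlapped for every member, and did not for 0.012% of genes and 0% of mt- rows. mt-Cytb held 15.2%, 26.4% and 30.3% of mt counts in the 6 dorsal libraries and 16.2%, 21.0% and 23.7% in the 8 ventral ones, with means of 24.8% ± 5.31 and 20.2% ± 2.43. The dorsal minus ventral difference was thus 4.62 points, opposite in sign to that of batch B. It came mostly from OS, where mt-Cytb held 27.7% ± 2.28 in 3 dorsal and 19.3% ± 2.45 in 4 ventral libraries. These OS groups did not overlap (25.96% to 30.3% in dorsal, 16.2% to 21.6% in ventral libraries). No member or other row was called in that split (0 of 37 rows, exact permutation test, adjusted p = 0.264 for mt-Cytb). With 3 against 4 libraries, the smallest p of this test passes adjustment over 37 rows only if many rows reach it. The absence of a call in that split therefore decides nothing. In pRPE mt-Cytb held 21.96% ± 6.37 in 3 dorsal and 21.1% ± 2.33 in 4 ventral libraries, which overlapped. mt-Co3 differed by 0.287 points. The low dorsal value of 15.2% was pRPE dorsal proximal replicate 1, in which rRNA took 37.3% of mt counts, the highest of the 30 libraries, and the next dorsal value was 22.9%.

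The difference between the batches was itself tested, as a batch by position interaction chosen after the opposite signs were seen. For mt-Cytb the dorsal minus ventral difference in mt share was 14.98 points lower in batch B than in batch A (permutation test, p = 1e-05, the smallest its 100000 resamples can give, adjusted p = 0.00037). For mt-Atp6 it was 3.41 points lower (1.89 in A and -1.52 in B), for mt-Co3 2.25 lower and for mt-Atp8 0.435 lower (0.337 and -0.0989), each with an adjusted p of 0.00192. These 4 members were among 7 rows called (18.9%), with mt-Nd3, mt-Nd4l and mt-Rnr2. With the 13 protein rows as the total, 1 member, mt-Cytb, was called, at -13.2 points, and as centred log ratios over those 13 rows the same 4 members were. mt-Co1 and mt-Co2 were not called under any of these. In shares of all counts, mt-Cytb (-1.04 ± 0.20, adjusted p = 0.0276) and mt-Co3 (-0.69 ± 0.21, adjusted p = 0.0330) were called by edgeR's quasi-likelihood test, as were 9.69% of genes, 1.36% in that direction. In the 349 genes counted in every library, mt-Cytb was called (adjusted p = 0.00370) and mt-Co3 was not (adjusted p = 0.0538), with 4.58% of genes called. Without pRPE dorsal proximal replicate 1, pRPE dorsal distal replicate 1, pRPE ventral proximal replicate 3, OS ventral distal replicate 1, or OS dorsal distal replicate 2 or 3, mt-Co3 lost its call, and mt-Cytb kept it in all 30 fits that left out 1 library. No member showed a batch by tissue interaction (0% of mt- rows and 4.1% of genes called).

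**Figure D3:**
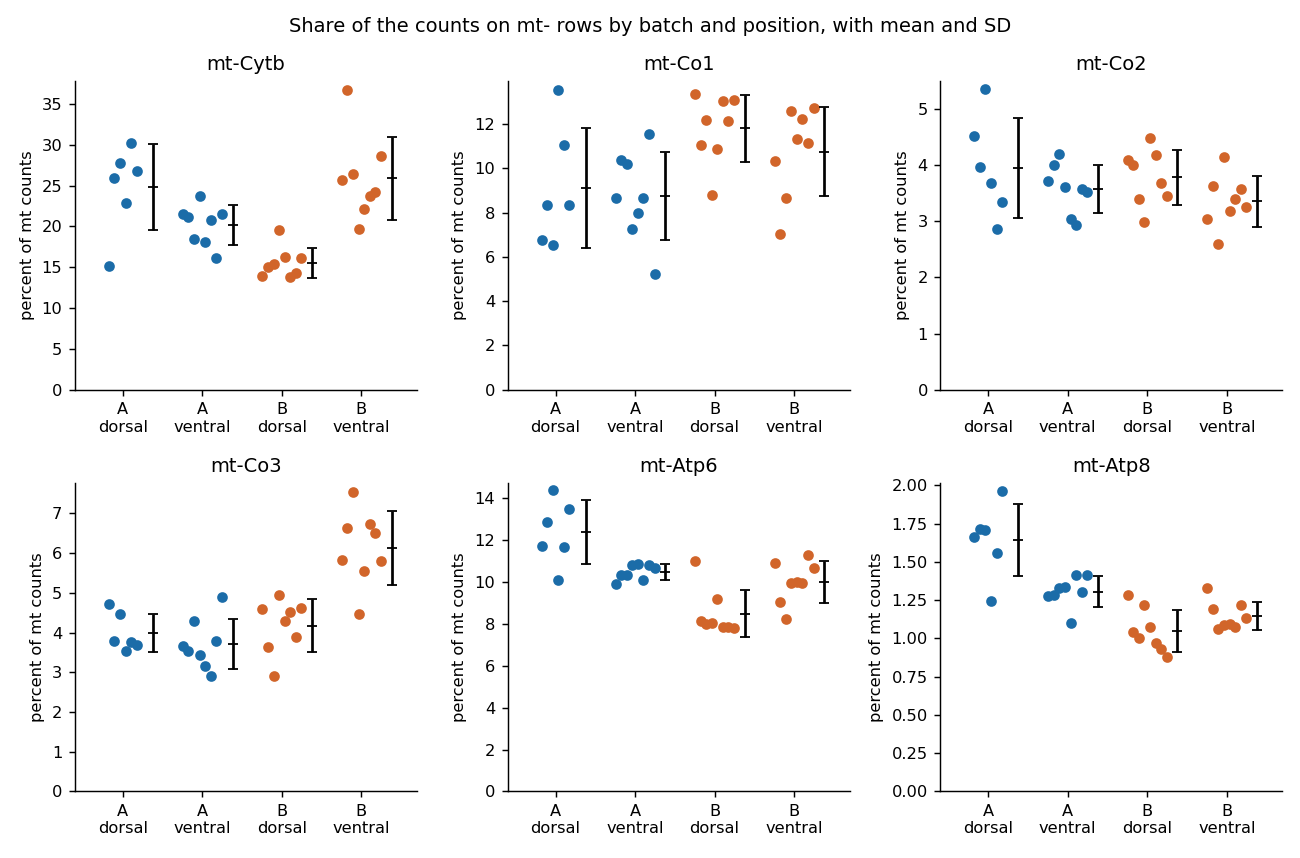
Share of the counts on mt- rows (percent, vertical axis) of the 6 transcripts by batch (A blue, B orange) and position, 1 point per library, with the mean and SD beside each group. Within batch B all dorsal mt-Cytb points (13.8% to 19.6%) lie below the ventral ones (19.7% to 36.7%), and in batch A the dorsal mean of 24.8% is above the ventral 20.2%.

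The batches also differed with dorsal and ventral libraries pooled, and the ATP synthase pair had the largest log2 fold changes of the 6. The mt- rows as a whole made up 47.6% ± 4.08 of all counts in batch A and 39.8% ± 4.83 in batch B, and the part of this in the shares of all counts was not tested. mt-Atp6 held 4.15%, 5.25% and 7.97% of all counts in batch A and 2.94%, 3.38% and 4.84% in batch B, with a log2 fold change, B over A, of -0.56 ± 0.09 (SE, edgeR's quasi-likelihood test, adjusted p = 0.00140). That is just under the fold threshold of 0.58, so it was not called. mt-Atp8 held 0.514%, 0.673% and 0.947% in A and 0.334%, 0.418% and 0.558% in B, with -0.66 ± 0.14 (adjusted p = 0.0286), and was the 1 member called, against 3.81% of genes called in all and 1.3% as lower in B. Those 318 calls fell to 6 with filterByExpr, and to 13, 11, 3, 8 and 7 without OS dorsal proximal, dorsal distal, dorsal middle, ventral distal or ventral proximal replicate 1. Among the 349 genes counted in every library, 3.44% were called and mt-Atp8 was again the 1 member (adjusted p = 0.000221). The batches overlapped for both genes. Batch accounted for 56.1% of the variance of mt-Atp6 and 62.1% of that of mt-Atp8 over the 30 libraries. mt-Cytb (-0.40 ± 0.13, adjusted p = 0.0895) and mt-Co2 (-0.34 ± 0.11, adjusted p = 0.0691) were not called, and they were with TMM scaling, which gave -0.66 and -0.62 and called 4 members among 291 of 8337 genes. mt-Co1 and mt-Co3 had 0.08 and 0.14, which turned to -0.16 and -0.14 with TMM and passed the test under neither. TMM moved the median of all genes between batches from 0.13 to -0.08. Without OS dorsal middle replicate 1 no member was called between batches, and without pRPE dorsal proximal replicate 2, pRPE ventral proximal replicate 3 or OS ventral middle replicate 4 mt-Atp6 was called too.

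Shares of mt counts gave 4 members called between batches, as part of 10 of 37 rows (27%). The ATP synthase pair was lower in batch B, mt-Atp6 at 9.24% ± 1.28 against 11.3% ± 1.39 (a difference of -2.05 points, permutation test, adjusted p = 0.00194) and mt-Atp8 at 1.10% ± 0.124 against 1.45% ± 0.237 (-0.351 points, adjusted p = 0.00037). Cytochrome c oxidase subunits went the other way, mt-Co1 at 11.3% ± 1.81 against 8.90% ± 2.23 (2.39 points, adjusted p = 0.0179) and mt-Co3 at 5.15% ± 1.28 against 3.83% ± 0.571 (1.32 points, adjusted p = 0.00894). Ranges overlapped for all 4. By their means, these differences were uneven across positions. From A to B, mt-Atp6 went from 12.4% to 8.49% in dorsal and from 10.5% to 10.002% in ventral libraries. For mt-Atp8 the means went from 1.64% to 1.05% in dorsal and from 1.31% to 1.15% in ventral libraries. For mt-Co3 they went from 3.99% to 4.17% in dorsal and from 3.71% to 6.13% in ventral libraries. mt-Co1 rose at both positions, from 9.104% to 11.8% in dorsal and from 8.75% to 10.8% in ventral libraries. mt-Cytb and mt-Co2 were not called. Among the other rows called, mt-Nd2, mt-Rnr1, the small ribosomal RNA, and the tRNAs mt-Tf and mt-Tm were lower in batch B, and the tRNAs mt-Te and mt-Ty higher.

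Library numbers in the labels fall into 4 separate runs of nearby numbers (called series here), 2 in each batch. Mean mt-Atp8 was 0.693% and 0.691% of all counts in the 2 series of batch A, and 0.467% and 0.415% in those of batch B. Mean mt-Atp6 was 5.26% and 5.47% in A, and 3.62% and 3.71% in B. Transcripts of 4 Y-linked genes (Ddx3y, Eif2s3y, Kdm5d and Uty, chosen after their values were seen) gave 526 to 6788 counts in each of the 9 libraries of 1 series of batch A, and at most 7 in any library of the other 3 series. The labels do not say which embryos lie in which batch, so batch and embryo cannot be told apart.

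**Figure D4:**
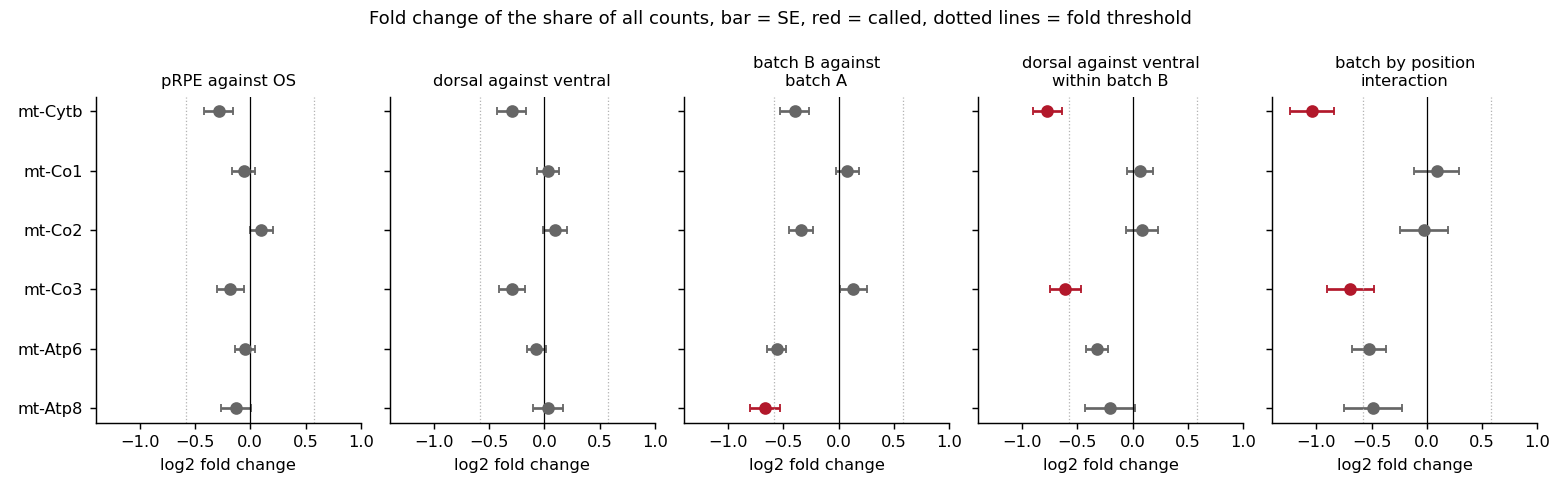
Log2 fold change of the share of all counts (horizontal axis) with its SE for the 6 transcripts in 5 comparisons, the last being a difference between batches of log2 fold changes; red points were called and dotted lines mark the fold threshold of 0.58. mt-Atp8 was called between batches (-0.66), and mt-Cytb and mt-Co3 within batch B (-0.77 and -0.61) and in the batch by position interaction (-1.04 and -0.69).

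The members did not vary as 1 block. mt-Atp6 and mt-Atp8, which share the overlap printed above, were the closest pair (Spearman's rho of 0.944 over the 30 libraries, a description, 0.873 in batch A and 0.835 in batch B), and their count ratio was 8.15 ± 0.797 (6.61 to 9.90). mt-Cytb and mt-Co1 had a rho of -0.181. Among the 22 other mt- rows with a count in every library, by share of mt counts, the row nearest to mt-Cytb was mt-Atp8 (0.439), to mt-Co1 and mt-Co2 mt-Tg (0.420 and 0.532), and to mt-Co3 the glutamate tRNA mt-Te (0.626). Within batches the order differed, since mt-Cytb and mt-Co3 had a rho of 0.791 in batch B and 0.0593 in batch A, and mt-Cytb and mt-Atp8 0.482 and 0.495. These shares have a common total, which ties them to each other.

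Among the 326 nuclear genes with a count in all 30 libraries, the one most like mt-Atp6 and mt-Atp8 was Col19a1, a collagen gene, with a rho of 0.974 and 0.973. The next nuclear gene reached 0.438 for mt-Atp6 (Mtdh, then E430018J23Rik at 0.423) and 0.4661 for mt-Atp8 (E430018J23Rik, then Rufy1 at 0.352). Col19a1 took 0.484% of all counts in the lowest library, 0.763% in the median and 1.41% in the highest. It amounted to 0.173 ± 0.00860 of the mt-Atp6 count (0.150 to 0.189, coefficient of variation 4.99%), a closer proportion than that between mt-Atp6 and mt-Atp8 (9.77%). Col19a1 is annotated on the minus strand at chr1:24261890-24587472, and 24063 bases separate it from the nuclear copy that holds mt-Atp6 and mt-Atp8. No stretch aligning to the mitochondrial genome was found within it. mt-Cytb also had Col19a1 as its nearest nuclear gene, at 0.673, followed by Mtdh (0.620) and Gm37090 (0.5675). The nearest genes of the others were Adgrv1 (0.596), Yipf1 (0.520) and Arntl (0.451) for mt-Co1, Wnk1 (0.582), Col19a1 (0.576) and E430018J23Rik (0.390) for mt-Co2, and Gm17132 (0.665), Dnajc5 (0.632) and Med18 (0.609) for mt-Co3.

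**Figure D5:**
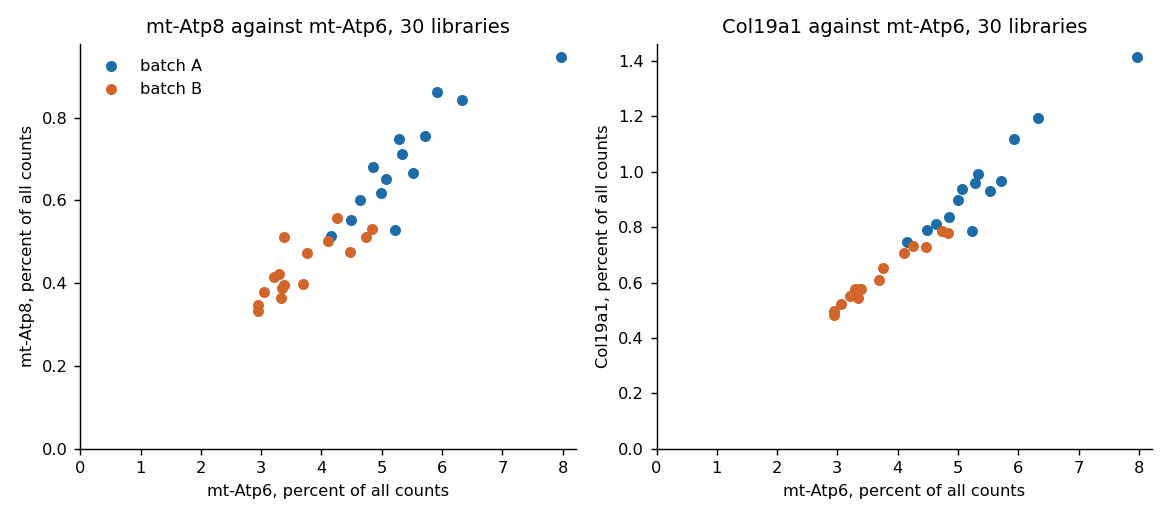
mt-Atp8 (left) and Col19a1 (right) against mt-Atp6, each in percent of all counts, 1 point per library coloured by batch (A blue, B orange). Both panels follow a line through the origin, with rho of 0.944 and 0.974, and batch B lies at the lower end.

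Most nuclear subunits of the same complexes were hardly counted, so they give little to set beside the mitochondrial ones. Of the 9 nuclear complex III subunits listed, 6 had no count in any library and Uqcrh, Uqcr10 and Uqcr11 had counts in 1 library each, so none passed the filter. Of 17 complex IV genes, 4 were tested, and Cox6a1, with counts in 3 libraries, was not. Cox6c and Ndufa4, a complex IV subunit named for complex I, were counted in all 30 libraries, and neither was called in any of the comparisons of tissue, position and batch. Cox6a2 was called as lower in batch B (log2 fold change -4.81 ± 1.33, adjusted p = 0.0391, edgeR's quasi-likelihood test), with counts in 3 libraries. Of 18 complex V genes, 3 were tested (Atp5g1, Atp5j2 and Atp5d) and none was called. Among 28 genes of mitochondrial transcription, RNA processing and translation, 8 were tested. The highest by mean count were Mtpap, the poly(A) polymerase, Polg, the DNA polymerase, and Mterf3, and none of these 3 was called. Mterf4, which acts in mitochondrial ribosome assembly, was called as higher in pRPE (4.51 ± 1.36), in dorsal libraries (4.38 ± 1.33) and in batch B (6.74 ± 1.69) from counts in 7 libraries, and Tfb2m, a mitochondrial transcription factor, as higher in dorsal libraries (4.91 ± 1.31) from 3. Subunits that every respiring cell uses, such as Cox4i1 and Atp5a1, were at 0 in all 30 libraries, so a count of 0 here does not show that a gene is silent. In such captured regions, fewer cells and less RNA per cell cannot be told apart, and every value here is a share of counts.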

How the data were processed

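Regions of 12 µm cryosections were laser-captured, and the RNA was reverse transcribed, amplified and sequenced as 150-base single-end reads. Per the labels, the authors used FastQC, HISAT2, StringTie and GRCm38, and the methods give default settings for HISAT2 and StringTie without naming the treatment of reads with several matches. The deposited values are estimated counts per gene. They were whole except for 270 values in 63 genes, none in the 6 members, and were rounded. No 2 libraries were identical.

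Groups came from the labels. Libraries held 1421918 to 6041021 counts. The quantities were computed: the share of all counts and the share of counts on the 37 mt- rows. Shares of all counts were tested with edgeR 4.0.16 (R 4.3.3; glmQLFit and glmQLFTest, total counts as library size, with no further scaling) on 8337 genes with more than 10 counts in at least 3 libraries, with tissue, position and batch in the model. A gene was called where its p, adjusted by Benjamini-Hochberg, was below 0.05 and it changed by more than 0.58 on the log2 scale. Shares of mt counts were tested by two-sided permutation of labels, within batch for tissue and position (100000 resamples; exact within 1 batch), adjusted over the 37 rows. On simulated counts, edgeR called too many unchanged genes with counts in few libraries and too few changed genes with counts in nearly all, so genes with a count in every library were also tested alone. Alternatives were TMM, TMMwsp, DESeq2 1.42.0, other filters, covariates and denominators, library-number series as a block, single batches and leaving out each library.

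The members and lists were chosen with earlier results of these data known. All 6 members are named with full values, other mt- rows where called or nearest to a member, listed nuclear genes where called or among the 3 highest of their list, and the 3 nuclear genes most alike by Spearman's rho. Sequences and positions came from GRCm38 (GENCODE and RefSeq annotation), and nuclear copies from BLAST 2.17.0. Python 3.11.15 (numpy 2.4.6, pandas 2.3.3, scipy 1.17.1, matplotlib 3.10.9) was used. The study's table of the mouse behind each sample was not used here, and the labels do not say that libraries of a region are separate embryos, so p-values may measure spread that is partly technical.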

Additional observations from a re-analysis of the deposited data

Results flagged for a closer look

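In 3 of 84 groups of 4 to 10 libraries, 1 library stood far from the rest by Dixon's criterion, which chance gives in about 1 in 20 groups. mt-Cytb held 22.9% of mt counts in pRPE dorsal proximal replicate 2, of batch A, against 13.8% to 15.2% in the other 3 libraries. It held 6.61% of all counts in pRPE ventral distal replicate 4, of batch B, against 9.71% to 10.1% in the other 3. In the 9 OS ventral libraries it held 17.2% in OS ventral distal replicate 2, of batch B and with the fewest detected genes (1730), against 8.26% to 12.0%.

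Dorsal against ventral differences differed between the batches for 4 members. In points of the share of mt counts, batch B minus batch A, they differed by -14.98 for mt-Cytb, -3.41 for mt-Atp6, -2.25 for mt-Co3 and -0.435 for mt-Atp8. On the log2 scale of the share of all counts they differed by -1.04 for mt-Cytb and -0.69 for mt-Co3. With the 13 protein rows as the total of the share of mt counts, only mt-Cytb was called. Fewer members were also called without the rRNA rows, while the same 4 were called as centred log ratios. What the batches stand for was not tested.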

How the results depend on the processing

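Libraries were not paired by embryo, since the mouse behind each was not used here. A block of library-number series was run for tissue, position, regions and tissue by position, where members called stayed at 0, and was not run for the batch, within-batch or batch by position results. Tissue, region, tissue by position and pooled position calls stayed at 0 of 6 in the fits over all 30 libraries, under every alternative run and without any 1 library. For pooled position by share of all counts, the fold threshold held part of this. Among fits without 1 library, the lowest adjusted p was 0.0396 for mt-Cytb and 0.0447 for mt-Co3 (edgeR's quasi-likelihood test). Within batch B, position gave 2 members by share of all counts, 2 in genes with a count in every library, and 2 by share of mt counts. It also gave 2 with detected genes as a covariate, where the p-values may be too small. Taken as a result of its own after seeing the data, that comparison gave 0 with TMM, 1 with TMMwsp and 0 with DESeq2, 4 with the 13 protein rows as the total and 4 without the rRNA rows (in both, mt-Cytb and mt-Co3 lower and mt-Co1 and mt-Co2 higher in dorsal libraries), and without single libraries 1 to 2 by share of all counts and 2 to 3 by share of mt counts. As centred log ratios over the 13 protein rows that comparison gave 3 members, among 8 rows called, 3 higher and 5 lower in dorsal libraries. Between batches, share of all counts gave 1 member, but 4 with TMM, 4 with TMMwsp, 3 with DESeq2, 0 with no filter and 0 to 2 without single libraries, and share of mt counts gave 4 in each such fit. The batch by position interaction, also added after seeing the data, gave 2 members by share of all counts, 1 in genes with a count in every library and 1 to 3 without single libraries. By share of mt counts it gave 4, in each fit without 1 library too, but 1 with the 13 protein rows as the total and 1 without the rRNA rows. The cause of these moves was not tested. Per start position of a whole read, a measure added after seeing the data, mt-Cytb was above mt-Atp8 in 11 libraries in place of 30, mt-Atp6 above mt-Atp8 in 1 in place of 30, mt-Co1 above mt-Atp8 in 0 in place of 18, and mt-Atp8 above mt-Co3 in 30 in place of 17. Genes called between tissues numbered 459, but 14 with filterByExpr, 38 with the block and 0 within either batch, and between positions 655, but 23 with filterByExpr. Of values for single members, 66 changed sign, none of them called under either setting. Counts per member ran from 6844 to 931680, so counting error was small beside the spread between libraries.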

Other observations

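The leading genes of the complexes' nuclear lists differed widely in counts. Ndufa4 averaged 5226 counts per 1e6 counts over the 30 libraries and Cox6c 1128, while Atp5g1, a subunit of the ATP synthase ring counted in 21 libraries, averaged 160.0, Atp5j2 35.6 and Atp5d 12.6. The rows of mt-Co2, mt-Co3, mt-Atp6 and mt-Atp8 lie wholly within the nuclear copy on chromosome 1, and mt-Cytb lies outside it, with 93.0% identity to its best full-length nuclear copy. Both kinds of rows were among those called between positions in batch B, mt-Co3 from inside the copy and mt-Cytb from outside.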
